A study of Mus musculus with 9 samples.

Results

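The genes described here encode the constant parts of mouse antibodies and the chain that joins them: Ighm, Ighd, Igha, Ighg1, Ighg2b, Ighg2c, Ighg3, Igkc, Iglc2 and Jchain. They were taken by symbol, 10 of the 55401 genes in the count tables, and 9 of the 10 passed the filter on low counts (18514 genes did). The RNA came from gastrocnemius (calf) muscle, taken at 7 weeks after injection from wild-type mice of the FVB strain aged 2 to 3 months. The 3 groups were AAV-GFP-MBNL1∆, an adeno-associated virus vector with green fluorescent protein and a shortened form of the splicing factor MBNL1; AAV-GFP, the vector with green fluorescent protein; and saline. Each group held 3 libraries, and the promoters of the vectors are not named in the labels. Whether each library stands for a separate mouse is not stated either, and the p-values below therefore reflect library-to-library spread, which may be technical.

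An antibody is built from a pair of heavy and a pair of light chains, each with a variable end that binds antigen and a constant end that sets what the antibody does. A B cell first joins its variable segments to the mu constant gene (Ighm), with delta (Ighd) made by splicing from the same transcript. Class switching then removes the DNA between the variable segments and a gamma, epsilon or alpha gene, so that the same antigen site is carried on IgG, IgE or IgA. Light chains use the kappa (Igkc) or lambda (Iglc) constant genes, and kappa predominates in the mouse. Healthy skeletal muscle holds few B cells or plasma cells.

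The heavy-chain genes lie side by side on the minus strand of chromosome 12 (GRCm38, GENCODE M21), from Ighm at chr12:113418558-113422730 to Igha at chr12:113254830-113260236. Their hinge exons, which separate the antigen-binding arms from the stem, are shown because the IgG subclasses compared here differ most plainly there. Capitals mark cysteine codons in the reading frame, which form the bridges between heavy chains. The exons lie at chr12:113329844-113329882 (Ighg1), chr12:113307261-113307326 (Ighg2b), chr12:113288263-113288325 (Ighg2c) and chr12:113360529-113360576 (Ighg3).
Ighg1: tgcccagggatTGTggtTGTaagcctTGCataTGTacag
Ighg2b: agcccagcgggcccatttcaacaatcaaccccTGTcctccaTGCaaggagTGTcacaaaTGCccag
Ighg2c: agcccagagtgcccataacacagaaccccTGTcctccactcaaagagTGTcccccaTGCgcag
Ighg3: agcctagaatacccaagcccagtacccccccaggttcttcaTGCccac
The Ighg1 and Ighg2b hinges hold 4 cysteine codons, that of Ighg2c holds 3 and that of Ighg3 holds 1. These are sequences of the reference strain, and the allotypes of FVB mice may differ from them, which can lower the counts of a gene by an unknown amount.

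J chain links IgM pentamers and IgA dimers through the cysteine at the end of their secreted tails. The last 60 coding bases of the secreted forms are shown for that reason, with cysteine codons of the reading frame in capitals. They lie at chr12:113420870-113420929 (Ighm), chr12:113258771-113258830 (Igha) and chr12:113328979-113329038 (Ighg1).
Ighm: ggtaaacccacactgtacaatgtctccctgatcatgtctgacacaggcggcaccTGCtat
Igha: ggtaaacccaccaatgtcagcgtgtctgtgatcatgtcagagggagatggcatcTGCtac
Ighg1: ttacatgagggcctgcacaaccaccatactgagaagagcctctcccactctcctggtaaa
Ighm and Igha each end on a cysteine codon followed by 1 more codon, and the Ighg1 stretch holds none. Reads were summed per gene, so the counts do not tell the secreted form from the membrane form.

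The libraries held 44603618 to 76970849 counts, and CPM is the count scaled to a common library size with TMM factors. The tissue label held: the 6 skeletal muscle markers summed to 121912 to 145967 CPM in AAV-GFP-MBNL1∆, 68232 to 110107 in AAV-GFP and 108409 to 144647 in saline. AAV-GFP 3 stood apart from AAV-GFP 1 and 2 and near saline in most of the genes described here. The groups also differed in sex-linked genes. Xist, which silences an X chromosome in females, had 0.0902, 0.0182 and 0.03 CPM in AAV-GFP-MBNL1∆ and 105 to 136 CPM in the other 6 libraries, while the Y-linked Ddx3y had 82.7, 84.6 and 84.0 CPM in AAV-GFP-MBNL1∆ and 0.409 to 2.58 CPM elsewhere. Sex and the MBNL1∆ vector therefore cannot be told apart in any comparison below that includes AAV-GFP-MBNL1∆. The 2.58 CPM of Ddx3y was in AAV-GFP 1. That library also had 75 counts of the Y-linked Eif2s3y and 50 of Uty, against 0, and 0 or 1, in AAV-GFP 2 and 3 and saline. In AAV-GFP-MBNL1∆ Eif2s3y had 3398, 3319 and 3370 counts. The source of these counts in AAV-GFP 1 was not tested.

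Ighm, the heavy chain of IgM, was the most abundant member in saline muscle and followed a pattern of its own. It had 707, 904 and 864 CPM in AAV-GFP-MBNL1∆, 157, 155 and 190 CPM in AAV-GFP, and 158, 88.3 and 158 CPM in saline. All AAV-GFP-MBNL1∆ libraries were above all others, and the AAV-GFP and saline libraries overlapped. Ighm averaged 825 ± 104 CPM in AAV-GFP-MBNL1∆ and 135 ± 40.2 CPM in saline (SD, n = 3 each), 6.12-fold higher, or 2.61 on the log2 scale (SE 0.24, adjusted p = 0.000646, edgeR quasi-likelihood test). Against AAV-GFP (167 ± 19.3 CPM), the AAV-GFP-MBNL1∆ mean was 4.93-fold higher, or 2.30 on the log2 scale (SE 0.23, adjusted p = 0.00103, edgeR). AAV-GFP differed from saline by 0.31 on the log2 scale (SE 0.22, adjusted p = 0.403, edgeR).

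**Figure D1:**
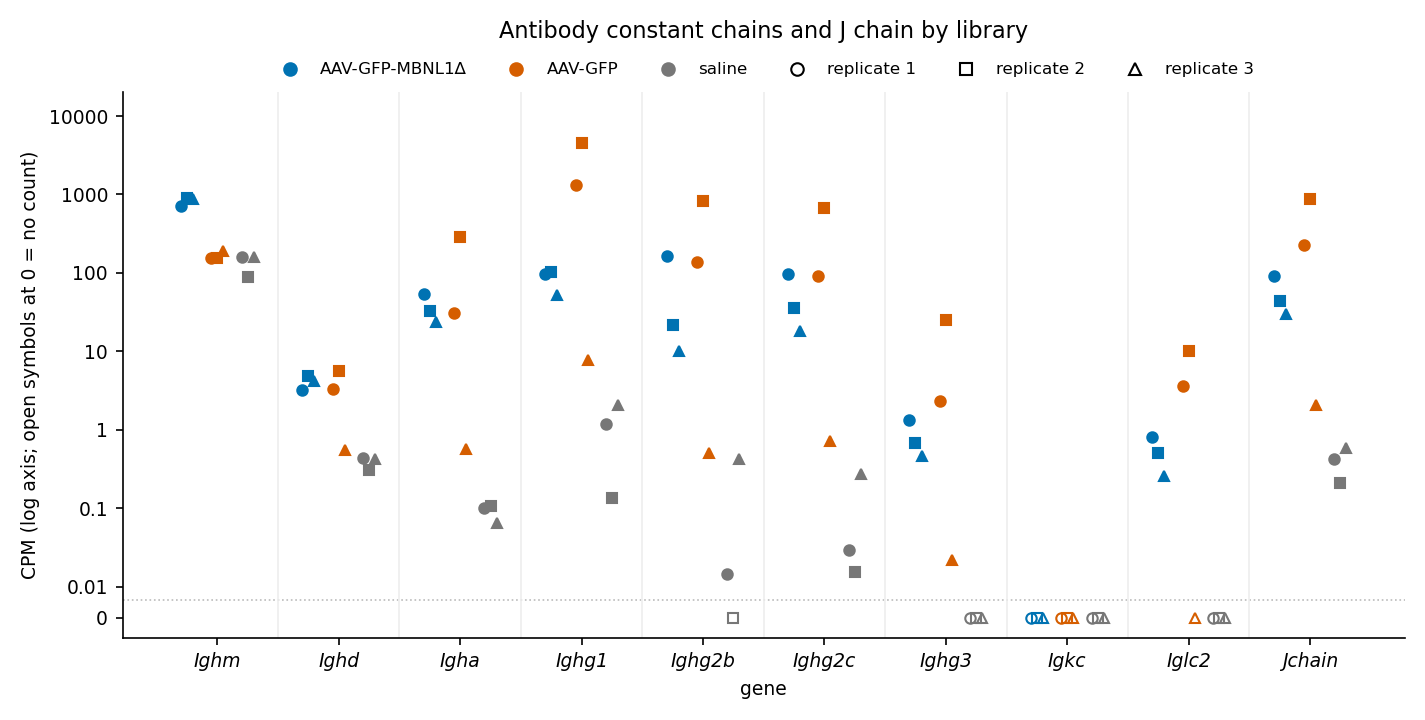
CPM of the 10 members (log axis) in each library, 1 symbol per library, with open symbols for a count of 0. Ighm is highest in the 3 AAV-GFP-MBNL1∆ libraries (707 to 904 CPM), whereas Ighg1 and Jchain are highest in AAV-GFP 1 and 2 and Igkc is at 0 in all 9 libraries.

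In saline, AAV-GFP-MBNL1∆ and AAV-GFP 3, Ighm counts were not matched by counts on joining or variable segments, which a rearranged heavy-chain transcript would also carry. The 4 Ighj segments together had 22, 8 and 6 counts in AAV-GFP-MBNL1∆, 62, 356 and 6 in AAV-GFP, and 4, 7 and 14 in saline. Joining segments were seldom counted even in AAV-GFP 2, where the 7 heavy chains had 518983 counts. Low Ighj counts therefore carry little weight for Ighm in particular. The 113 Ighv segments had 2484, 1315 and 223 counts in AAV-GFP-MBNL1∆, 7284, 42296 and 29 in AAV-GFP, and 1, 4 and 19 in saline. Ighm itself had 47005, 49688 and 57673 counts in AAV-GFP-MBNL1∆, 10593, 12458 and 8564 in AAV-GFP, and 10941, 5833 and 12154 in saline. In the saline libraries, 5833 to 12154 Ighm reads thus stood beside at most 19 reads on all heavy-chain variable segments. In AAV-GFP 2 the Ighv segments had more reads than Ighm, 42296 against 12458. Transcripts of every heavy-chain class carry variable segments, and of the 518983 heavy-chain counts in that library 361709 were Ighg1. The Ighv reads there were thus fewer than those on all heavy chains together. Segments of FVB mice may differ from the reference, so their counts are lower limits on what the libraries held.

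**Figure D2:**
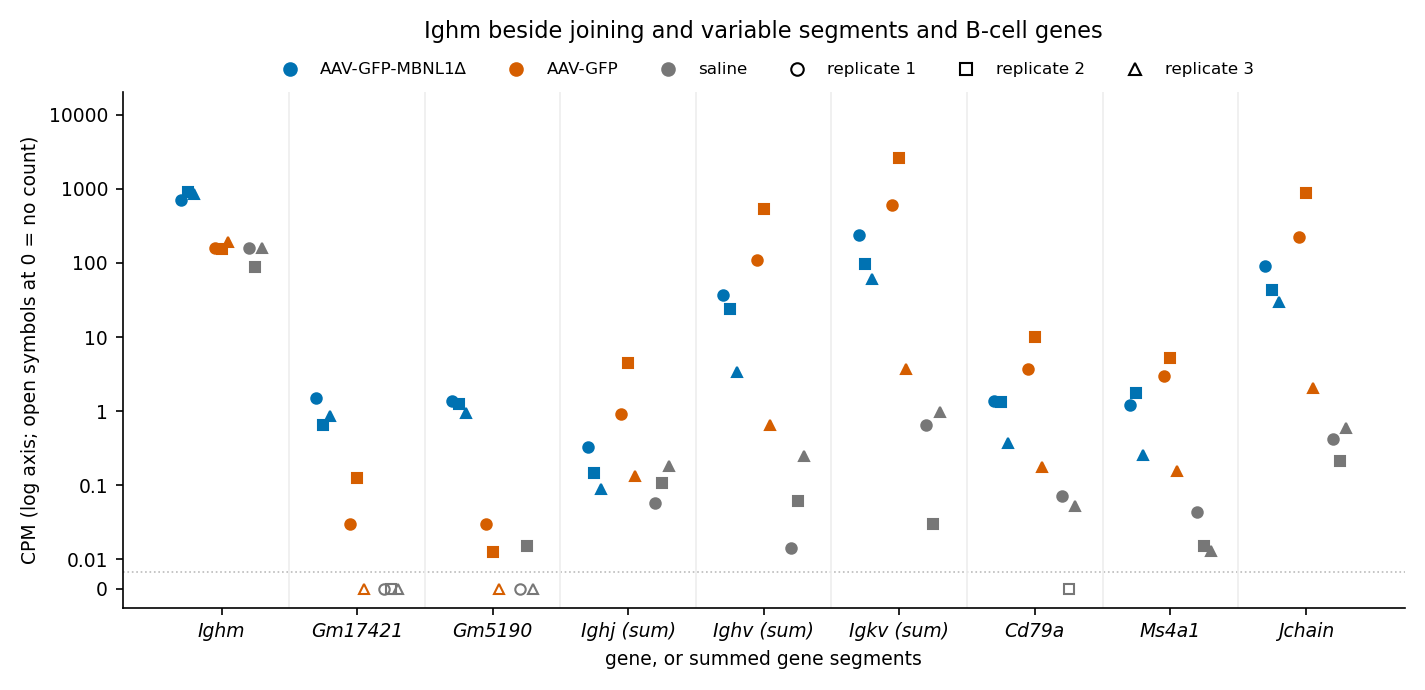
CPM (log axis) per library of Ighm, a pair of pseudogenes of the heavy-chain locus, the summed joining (Ighj) and variable (Ighv, Igkv) segments, the B-cell genes Cd79a and Ms4a1, and Jchain. In saline, Ighm stands at 88.3 to 158 CPM while the summed Ighv segments stay at or below 0.247 CPM.

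Several genes outside the antibody loci lay closer to the pattern of Ighm over the 9 libraries than any other member did. By the root mean square difference of centred log2 CPM, among 12207 protein-coding genes with immunoglobulin genes left out, the 5 closest were Cited4 (0.31), Gadl1 (0.32), Pfkfb3 (0.36), Npnt (0.37) and Dnaic1 (0.37). Cited4 is a transcriptional coactivator, Pfkfb3 makes a regulator of glycolysis and Npnt is an extracellular matrix protein. Pfkfb3 had 452, 260 and 294 CPM in AAV-GFP-MBNL1∆, 63.1, 51.0 and 67.4 CPM in AAV-GFP, and 73.3, 49.97 and 57.8 CPM in saline. The member closest to Ighm was Ighd, at 1.19, and the others lay at 2.48 to 4.22. The pool of 12207 genes is far larger than the set of members, so a closer gene in it carries little weight. The distance also grows with the size of a change, and against saline Ighm changed less than every other tested member.

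Some neighbours of Ighm also differed. Of 53 genes annotated within 1000000 bases on either side, immunoglobulin genes left out, 27 were tested. In AAV-GFP-MBNL1∆ against saline, 5 of them rose (Pacs2, Tex22, Mta1, Gm17421 and Gm5190) and A530016L24Rik fell, where edgeR called 4.76% of all tested genes as risen and 4.6% as fallen. In AAV-GFP-MBNL1∆ against AAV-GFP, 5 rose (Adssl1, Pacs2, Mta1, Gm17421 and Gm5190) and 3 fell (A530016L24Rik, Gpr132 and Crip1), beside 10.8% and 10.3% of all tested genes. Gm5190, a processed pseudogene between Ighg3 and Ighd at chr12:113397229-113397585 and on the plus strand, opposite to Ighm, had 91, 68 and 63 counts in AAV-GFP-MBNL1∆, 2, 1 and 0 in AAV-GFP, and 0, 1 and 0 in saline (log2 fold change 7.48, adjusted p = 0.000469, edgeR). Gm17421, a pseudogene at chr12:113369522-113372201, had 101, 36 and 57 counts in AAV-GFP-MBNL1∆, 2, 10 and 0 in AAV-GFP, and 0 in each saline library. These pseudogenes were picked after their values were seen, and their order among groups is that of Ighm, not of the class-switched chains. In AAV-GFP against saline, edgeR and limma-voom called 0 of the 27 neighbours and DESeq2 called 6 (11 at an unadjusted p under 0.05 in edgeR, 10 of them higher). DESeq2 called 8.8% of all tested genes as risen in that comparison.

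Ighd, the heavy chain of IgD on naive B cells, was low throughout. It had 3.22, 4.87 and 4.18 CPM in AAV-GFP-MBNL1∆, 3.28, 5.67 and 0.553 CPM in AAV-GFP, and 0.433, 0.303 and 0.429 CPM in saline. Every library of either vector group was above every saline library. Against saline it rose in AAV-GFP-MBNL1∆ (10.5-fold, log2 fold change 3.39, SE 0.70, adjusted p = 0.0243, edgeR), and in AAV-GFP the mean was 8.16-fold higher, or 4.93-fold without AAV-GFP 2, with an adjusted p of 0.0855 (edgeR). As a share of heavy-chain counts per kb of exon, Ighd stayed under 0.5% in every library, at 0.298%, 0.451% and 0.434% in AAV-GFP-MBNL1∆, 0.239%, 0.108% and 0.278% in AAV-GFP, and 0.270%, 0.338% and 0.265% in saline.

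The 4 IgG heavy chains were near 0 in saline and varied widely among the AAV-GFP libraries. Ighg1 encodes IgG1, an IgG of mice that fixes complement weakly. It had 97.7, 103 and 51.5 CPM in AAV-GFP-MBNL1∆, 1307, 4508 and 7.81 CPM in AAV-GFP, and 1.18, 0.136 and 2.09 CPM in saline. AAV-GFP 2 was the highest library and AAV-GFP 3 lay below all AAV-GFP-MBNL1∆ libraries, yet every library of both vector groups was above saline. The mean was 74.0-fold higher in AAV-GFP-MBNL1∆ than in saline (log2 fold change 6.19, SE 1.83, adjusted p = 0.0726, edgeR) and 1706-fold higher in AAV-GFP than in saline (10.72, SE 2.18, adjusted p = 0.0841, edgeR), so neither passed the test. Without AAV-GFP 2 the AAV-GFP fold was 578, and without saline 3 the folds were 128 in AAV-GFP-MBNL1∆ and 2941 in AAV-GFP.

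Ighg2b and Ighg2c encode complement-fixing IgG subclasses that bind activating Fc receptors. Ighg2b had 163, 21.8 and 9.96 CPM in AAV-GFP-MBNL1∆, 136, 819 and 0.509 CPM in AAV-GFP, and 0.0144, 0 and 0.429 CPM in saline. Ighg2c had 95.7, 35.2 and 18.3 CPM in AAV-GFP-MBNL1∆, 90.2, 668 and 0.708 CPM in AAV-GFP, and 0.0289, 0.0151 and 0.273 CPM in saline. For both genes every vector library exceeded every saline library, and AAV-GFP-MBNL1∆ 1 was close to AAV-GFP 1. Adjusted p-values (edgeR) were 0.0770 and 0.0559 in AAV-GFP-MBNL1∆ against saline and 0.0932 and 0.0841 in AAV-GFP against saline, for Ighg2b and Ighg2c in that order.

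Ighg3, the IgG subclass often raised against carbohydrate antigens, was the least abundant IgG. It had 1.32, 0.673 and 0.464 CPM in AAV-GFP-MBNL1∆, 2.31, 25.4 and 0.0221 CPM in AAV-GFP (the lowest from 1 count), and no count in the saline libraries. Taking the limit that 3 counts over the group set, its mean was at least 58.0-fold higher in AAV-GFP-MBNL1∆ and at least 653-fold higher in AAV-GFP than in saline, with adjusted p-values of 0.204 and 0.128 (edgeR). Without AAV-GFP 2 the bound for AAV-GFP was at least 82.6-fold.

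Igha, the heavy chain of IgA, the antibody of mucosal secretions, had 53.8, 33.0 and 23.5 CPM in AAV-GFP-MBNL1∆, 30.9, 287 and 0.576 CPM in AAV-GFP, and 0.101, 0.106 and 0.0650 CPM in saline. All vector libraries were above saline. It rose 405-fold in AAV-GFP-MBNL1∆ against saline (log2 fold change 8.65, SE 2.17, adjusted p = 0.0442, edgeR). In AAV-GFP the mean was 1171-fold higher than in saline, or 173-fold without AAV-GFP 2, with an adjusted p of 0.0841 (edgeR).

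Jchain had 90.6, 43.3 and 29.5 CPM in AAV-GFP-MBNL1∆, 225, 870 and 2.08 CPM in AAV-GFP, and 0.419, 0.212 and 0.585 CPM in saline. As for Igha and the 4 IgG chains, AAV-GFP 2 was the highest of all libraries, AAV-GFP 3 was the lowest of the vector libraries, and all saline libraries lay below it. It rose 134-fold in AAV-GFP-MBNL1∆ against saline (log2 fold change 7.05, SE 1.82, adjusted p = 0.0487, edgeR), and the mean in AAV-GFP was 902-fold higher than in saline (9.79, SE 1.99, adjusted p = 0.0841, edgeR), or 280.0-fold without AAV-GFP 2. By pattern over the 9 libraries, Jchain lay closest to the members Ighg2c (0.63), Igha (0.80), Ighg2b (0.91) and Ighg1 (0.93), and outside them to Ccl8 (1.34), Cxcl9 (1.45), Pou2af1 (1.46), Ly6c2 (1.4998) and Slpi (1.57). Ccl8 and Cxcl9 are chemokines and Pou2af1 is a B-cell coactivator of antibody genes. These distances are much larger than those between Ighm and its closest genes, and Ighm itself lay at 3.63 from Jchain. The distance grows with the size of a change, so distances to Jchain and to Ighm cannot be compared as closeness of pattern.

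The light chains were measured unevenly. Igkc, the kappa constant gene at chr6:70726435-70726966, had 0 counts in all 9 libraries, and so did the 5 Igkj segments beside it. The 100 kappa variable segments were not empty: together they had 237, 96.7 and 60.9 CPM in AAV-GFP-MBNL1∆, 609, 2576 and 3.74 CPM in AAV-GFP, and 0.650, 0.0303 and 0.975 CPM in saline. Gm30211, a noncoding gene whose span on the same strand includes Igkc, had 358, 167 and 58 counts in AAV-GFP-MBNL1∆, 1211, 4860 and 3 in AAV-GFP, and 2, 0 and 4 in saline. Reads that the counting left out as ambiguous made up 3.66% in AAV-GFP 2, 2.50% in AAV-GFP 1 and 2.11% to 2.27% in the other libraries. In GENCODE M21, 0 of the 532 exon bases of Igkc lie in exons of another gene. The annotation release used for the counting is not recorded. The cause of the 0 of Igkc was not tested, and this 0 is not a measure of kappa transcripts.

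Iglc2, the lambda constant gene on chromosome 16, had 0.812, 0.509 and 0.255 CPM in AAV-GFP-MBNL1∆, 3.63, 10.03 and 0 CPM in AAV-GFP, and 0 CPM in each saline library. AAV-GFP 3 was at 0 like saline, and the other 5 vector libraries were above it. Its mean was at least 37.2-fold higher in AAV-GFP-MBNL1∆ and at least 322-fold higher in AAV-GFP than in saline, with adjusted p-values of 0.182 and 0.115 (edgeR). Without AAV-GFP 2 the bound for AAV-GFP was at least 128-fold. Iglc2 and Iglc3 are 96.5% identical over 314 coding bases, and 7.65% of the 50-base stretches of Iglc2 transcripts also occur in Iglc3, so reads may be split between them. For the IgG chains the share of such stretches found in another gene was 0.39% (Ighg1), 4.15% (Ighg2b), 5.49% (Ighg2c) and 1.58% (Ighg3), and for Ighm, Ighd and Igha it was 0.

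**Figure D3:**
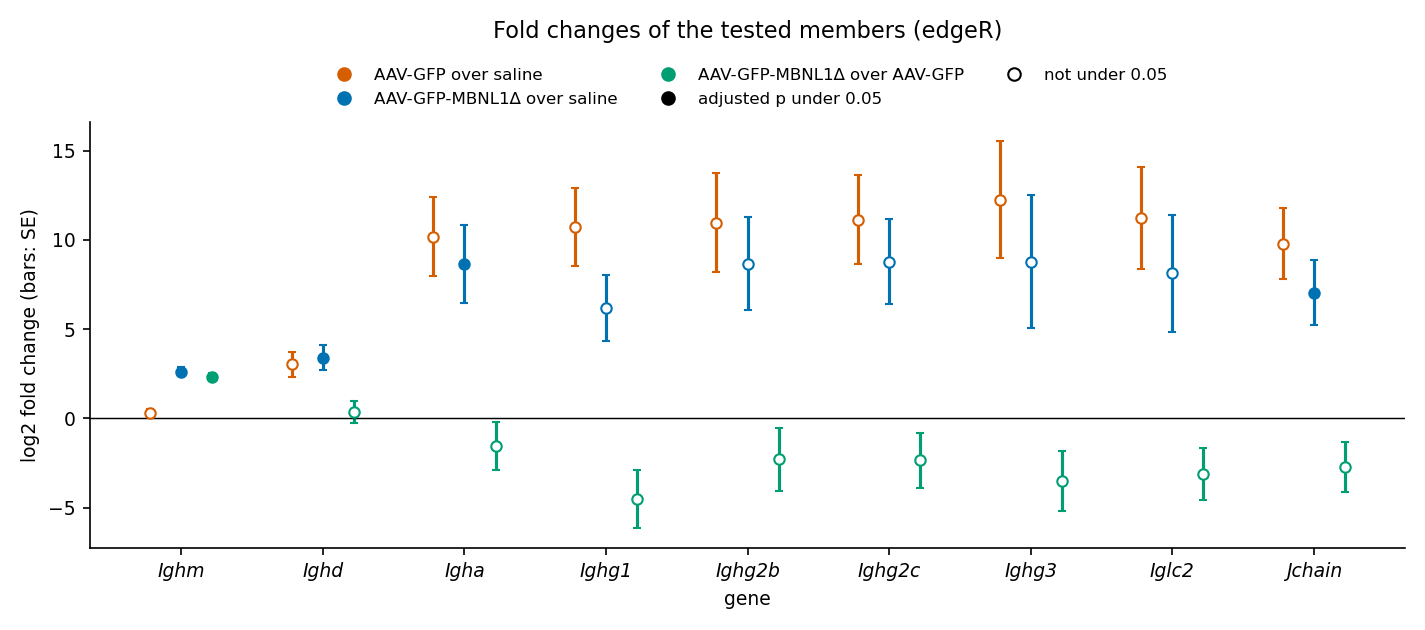
Log2 fold change (y axis) with its SE for the 9 tested members in each comparison, filled where the adjusted p was under 0.05. Ighm has small errors and is called in both comparisons with AAV-GFP-MBNL1∆, while the class-switched chains have SEs of 1.3 to 3.7.

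Counted together, 0 of 10 members were called in AAV-GFP against saline, where edgeR called 0.0% of all tested genes as risen and 0.0% as fallen (2889 genes higher and 1176 lower at an unadjusted p under 0.05, among them 8 members higher, and 0 genes called by limma-voom). All 3 AAV-GFP libraries were above all 3 saline libraries for 7 of 10 members, against 14.7% of tested genes. The median log2 fold change of the 9 tested members was 10.72, beside −0.01 over all tested genes. Without AAV-GFP 3, 8 members rose (all tested ones but Ighm), against 15.3% of tested genes, and DESeq2 on all libraries also called 8, against 8.8%. Leaving out AAV-GFP 1 or AAV-GFP 2 gave 0.

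In AAV-GFP-MBNL1∆ against saline, 4 of 10 members rose (Ighm, Ighd, Igha and Jchain) and 0 fell, against 4.76% and 4.6% of all tested genes. All 3 AAV-GFP-MBNL1∆ libraries were above all 3 saline libraries for 9 of 10 members, against 22.7% of tested genes, and the median log2 fold change was 8.12 beside 0.02 over all genes. The Ighm call held in each refit that left out 1 library. The calls of Ighd, Igha and Jchain did not: without any one of the saline or AAV-GFP-MBNL1∆ libraries only Ighm was called, without AAV-GFP 1 Ighm and Ighd were, without AAV-GFP 2 Jchain was lost, and without AAV-GFP 3 the count was 8 (6.01% of tested genes rose). A fit of the 2 groups alone called 9 members (12.9% of genes rose) and so did DESeq2 (8.64%).

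In AAV-GFP-MBNL1∆ against AAV-GFP, Ighm rose and was the only member called, against 10.8% of tested genes that rose and 10.3% that fell. It was also the only member with all AAV-GFP-MBNL1∆ libraries above all AAV-GFP libraries, which held for 19.2% of tested genes. The median over the 9 tested members was −2.35, beside −0.06 over all genes, and Ighg1 stood at −4.53 on the log2 scale (SE 1.64, adjusted p = 0.0786, edgeR). Without AAV-GFP 3, 4 members fell (Ighg1, Ighg3, Iglc2 and Jchain), against 22.4% of tested genes. The 3 comparisons share libraries pairwise, so their values are not independent of each other.

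Isotype shares put these levels on a common scale, as counts per kb of exon over the sum of the 7 heavy chains. Ighm made up 66.0%, 84.2% and 90.4% in AAV-GFP-MBNL1∆, 11.6%, 2.99% and 95.9% in AAV-GFP, and 99.1%, 99.4% and 98.3% in saline. All 3 libraries of each vector group had a lower share than every saline library, and AAV-GFP spanned nearly the whole scale. In saline these shares consist of the Ighm reads that were not matched by reads on variable segments. The vector libraries hold such reads as well. Ighm had 49688 and 57673 counts beside 1315 and 223 on Ighv segments in AAV-GFP-MBNL1∆ 2 and 3, and 8564 beside 29 in AAV-GFP 3. The ratio of Ighm to Jchain given below holds them too, and their part in each share was not tested. The share averaged 80.2 ± 12.7% in AAV-GFP-MBNL1∆ and 99.0 ± 0.571% in saline (SD, n = 3 each; exact two-sided permutation p = 0.1, the smallest that 3 against 3 allows). It averaged 36.8 ± 51.4% in AAV-GFP, against which AAV-GFP-MBNL1∆ did not separate (exact permutation p = 0.4). Ighg1 was the largest share in AAV-GFP 1 and 2, at 70.0% and 63.2%, and 2.88% in AAV-GFP 3.

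**Figure D4:**
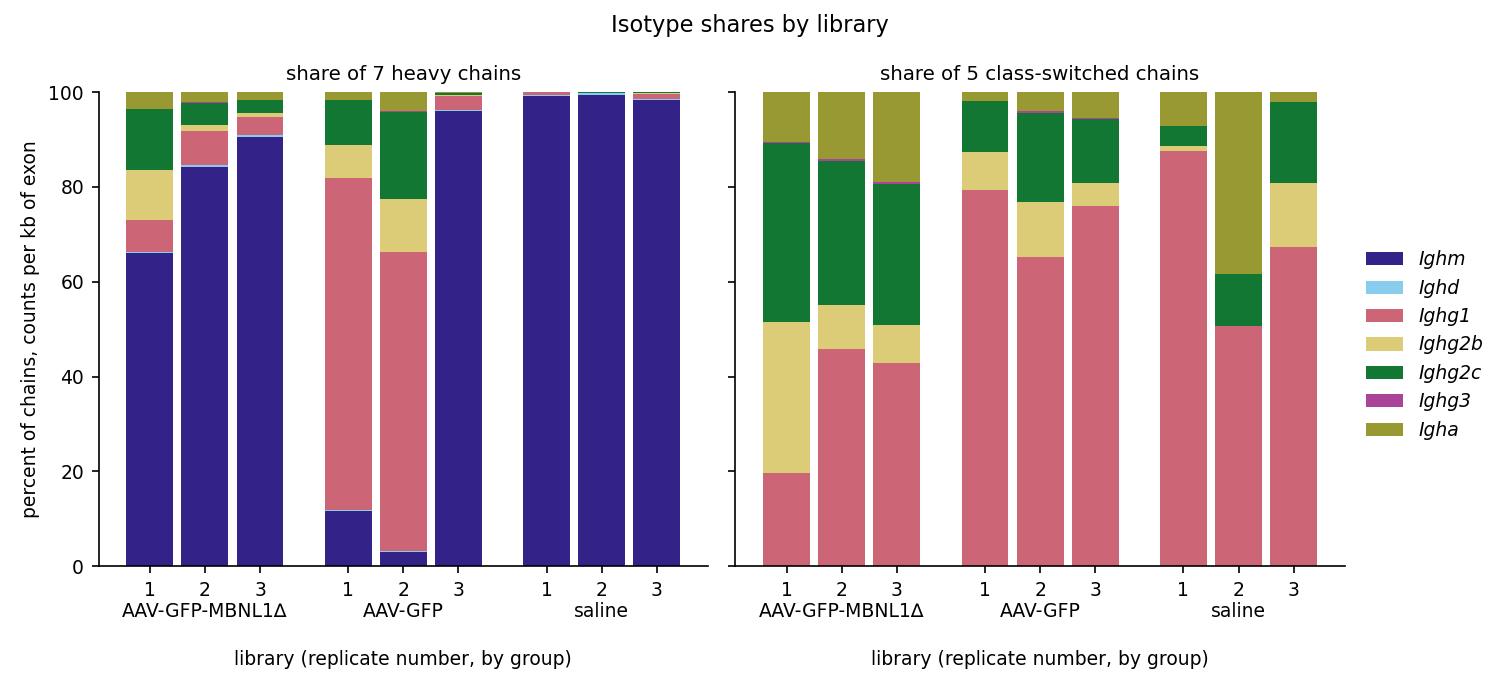
Stacked bars of each library's heavy chains as percent of counts per kb of exon, for all 7 heavy chains (left) and for the 5 class-switched chains alone (right). Ighm fills over 98% of the saline bars, and Ighg1 takes 65.2% to 79.3% of the class-switched chains in AAV-GFP and 19.7% to 45.8% in AAV-GFP-MBNL1∆.

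Among the class-switched chains alone (Ighg1, Ighg2b, Ighg2c, Ighg3 and Igha, a comparison added after the data were seen), the IgG1 shares of the vector groups did not overlap, whereas the CPM levels of the 5 chains did. Ighg1 made up 19.7%, 45.8% and 42.9% in AAV-GFP-MBNL1∆, 79.3%, 65.2% and 76.1% in AAV-GFP, and 87.5%, 50.7% and 67.4% in saline. AAV-GFP 3, with 435 class-switched counts, had nearly the share of AAV-GFP 1, with 105609. The saline shares rest on 92, 17 and 220 counts, and that of saline 2 has a 95% interval of 26.04% to 75.4%. This is the exact Clopper-Pearson interval of its raw-count share, 27.8% to 77.0%, rescaled by exon length with the mix of the other chains held. The IgG1 share averaged 36.1 ± 14.3% in AAV-GFP-MBNL1∆ and 73.5 ± 7.39% in AAV-GFP, a difference of −37.4 percentage points (SD, n = 3 each; exact two-sided permutation p = 0.1, the smallest possible). Against saline (68.5 ± 18.4%) the difference was −32.4 points (exact permutation p = 0.1) for AAV-GFP-MBNL1∆ and 5.002 points (exact permutation p = 0.7) for AAV-GFP.

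Ighg2c and Igha had larger shares of the class-switched chains in all AAV-GFP-MBNL1∆ libraries than in any AAV-GFP library, and Ighg2b in AAV-GFP-MBNL1∆ 1 alone. Ighg2c made up 37.7%, 30.4% and 29.7% in AAV-GFP-MBNL1∆ and 10.7%, 18.9% and 13.5% in AAV-GFP, with no overlap. Igha made up 10.5%, 14.2% and 19.0% in AAV-GFP-MBNL1∆ and 1.82%, 4.04% and 5.44% in AAV-GFP, again with no overlap. Ighg2b reached 31.8% in AAV-GFP-MBNL1∆ 1 but stood at 9.33% and 8.02% in AAV-GFP-MBNL1∆ 2 and 3, within the 4.797% to 11.5% of AAV-GFP, and Ighg3 stayed under 0.4% in every library. As shares of raw counts, with no length scaling, Ighg2c made up 23.3%, 18.1% and 17.6% in AAV-GFP-MBNL1∆ and 5.76%, 10.6% and 7.36% in AAV-GFP, still with no overlap. By raw counts Ighg2b, at 39.6%, exceeded Ighg2c in AAV-GFP-MBNL1∆ 1, whereas per kb Ighg2c was the larger there.

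The ratio of Ighm to Jchain, which needs no scaling, separated the members' patterns. Its log2 value was 2.96, 4.38 and 4.87 in AAV-GFP-MBNL1∆, −0.52, −2.49 and 6.49 in AAV-GFP, and 8.51, 8.60 and 8.05 in saline. Both vector groups lay below saline (exact permutation p = 0.1 for each, the smallest possible). Jchain over the summed class-switched chains varied far less, at −2.18, −2.16 and −1.81 in AAV-GFP-MBNL1∆, −2.80, −2.86 and −2.20 in AAV-GFP, and −1.63, −0.26 and −2.26 in saline. AAV-GFP-MBNL1∆ was above AAV-GFP in all libraries by a mean of 0.57 (exact permutation p = 0.1), and neither vector group separated from saline.

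Genes of B cells followed the class-switched chains more than Ighm. Cd79a, which signals for the B-cell receptor, had 1.37, 1.33 and 0.375 CPM in AAV-GFP-MBNL1∆, 3.71, 10.02 and 0.177 CPM in AAV-GFP, and 0.0722, 0 and 0.0520 CPM in saline. Of 12 B-cell genes tested, 0 rose in either comparison with saline by edgeR or limma-voom. At an unadjusted p under 0.05 (edgeR), 5 were higher in AAV-GFP-MBNL1∆ and 11 in AAV-GFP, and DESeq2 called 5 and 10. Over all 18514 tested genes, 2423 and 2889 were higher at that threshold, and DESeq2 called 8.64% and 8.8% as risen. In AAV-GFP-MBNL1∆ against saline, edgeR called 4.76% of all tested genes as risen and 4.6% as fallen. These values over all genes also stand beside the lists that follow. The median log2 fold change was 2.12 in AAV-GFP-MBNL1∆ against saline and 3.86 in AAV-GFP against saline. Among those with the smallest p-values in AAV-GFP against saline were Cd22, Pax5 and Ms4a1, each with an adjusted p of 0.0841 (edgeR). Ebf1, a B-lineage factor that other tissues also express, was the exception in level and direction: it had 54.9, 54.9 and 52.2 CPM in AAV-GFP-MBNL1∆, 67.1, 68.4 and 71.4 CPM in AAV-GFP, and 69.7, 66.8 and 64.2 CPM in saline, and fell in AAV-GFP-MBNL1∆ against saline (log2 fold change −0.31, adjusted p = 0.0279, edgeR). In bulk RNA, fewer cells of a type and less RNA per cell cannot be told apart.

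Of 10 plasma-cell genes, 9 were tested and edgeR and limma-voom called 0 against saline in either vector group. The medians were 0.67 in AAV-GFP-MBNL1∆ and 1.78 in AAV-GFP. At an unadjusted p under 0.05 (edgeR), 1 gene was higher and 1 (Xbp1) lower in AAV-GFP-MBNL1∆, and all 9 were higher in AAV-GFP, where DESeq2 called 5 (1 in AAV-GFP-MBNL1∆). Pou2af1 had 2.68, 1.16 and 0.659 CPM in AAV-GFP-MBNL1∆, 15.0, 49.96 and 0.199 CPM in AAV-GFP, and 0.0289, 0.0454 and 0.0650 CPM in saline. Against AAV-GFP, Xbp1 and Prdm1, which drive the secretory programme of plasma cells but are also expressed elsewhere, fell in AAV-GFP-MBNL1∆ (log2 fold changes −1.28 and −2.12, adjusted p = 0.0150 and 0.0202, edgeR). They were 2 of the 9 tested, where edgeR called 10.3% of all tested genes as fallen. Xbp1 already stood at 82.5 to 104 CPM in saline.

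Of 7 tested genes of class switching and the germinal centre, edgeR and limma-voom called 0 against saline in either vector group (1 in AAV-GFP-MBNL1∆ and 3 in AAV-GFP at an unadjusted p under 0.05 in edgeR, and as many by DESeq2). The medians were −0.06 in AAV-GFP-MBNL1∆ and 0.87 in AAV-GFP. Gcsam and S1pr2 fell in AAV-GFP-MBNL1∆ against AAV-GFP (log2 fold changes −1.92 and −1.13, adjusted p = 0.0316 and 0.0396, edgeR), where DESeq2 called 3 genes of the list as fallen and limma-voom called 0. Over all 18514 tested genes in that comparison, edgeR called 10.3% as fallen and DESeq2 called 3001 genes as fallen.

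Among 11 genes for signals to B cells, 7 were tested. Cxcl13, the chemokine that draws B cells into follicles, had 11.4, 11.1 and 3.09 CPM in AAV-GFP-MBNL1∆, 27.6, 40.4 and 2.35 CPM in AAV-GFP, and 0.549, 0.621 and 0.325 CPM in saline. It rose in AAV-GFP-MBNL1∆ against saline (log2 fold change 4.10, adjusted p = 0.0420, edgeR) and was the only one of the list that edgeR called in any comparison, while limma-voom called 0 of the list in any comparison and DESeq2 called 2 against saline in AAV-GFP-MBNL1∆ and 5 in AAV-GFP. The list medians against saline were 1.002 and 1.83 in that order. Il21, which drives plasma-cell formation, had 0.286, 0.309 and 0.0300 CPM in AAV-GFP-MBNL1∆, 0.386, 0.436 and 0.0443 CPM in AAV-GFP, and 0 in each saline library (adjusted p = 0.0843 in AAV-GFP-MBNL1∆ against saline, edgeR).

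Receptors that bind or carry antibodies formed the last list, with 8 of 10 tested. Against saline edgeR and limma-voom called 0 in either vector group, with medians of 1.11 in AAV-GFP-MBNL1∆ and 3.18 in AAV-GFP. DESeq2 called 1 in AAV-GFP-MBNL1∆ and 7 in AAV-GFP, and as many had an unadjusted p under 0.05 in edgeR. Fcgr4, a mouse receptor for IgG2 subclasses on myeloid cells, had 1.22, 0.782 and 0.375 CPM in AAV-GFP-MBNL1∆, 6.85, 36.3 and 1.11 CPM in AAV-GFP, and 0.0577, 0 and 0.0260 CPM in saline. Trim21, Fcgr4 and Fcgr1 fell in AAV-GFP-MBNL1∆ against AAV-GFP (log2 fold changes −1.55, −4.22 and −3.27, adjusted p = 0.0285, 0.0376 and 0.0443, edgeR), where edgeR called 10.3% of all tested genes as fallen. Fcgrt, the neonatal Fc receptor that recycles IgG, stood at 52.8 to 57.4 CPM in AAV-GFP-MBNL1∆, 49.7 to 74.5 CPM in AAV-GFP and 46.2 to 50.4 CPM in saline, and Pigr, which carries IgA and IgM across epithelia, had 1 count in all 9 libraries together.

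Summed markers of T cells and of macrophages reached their highest values in AAV-GFP, like the class-switched chains, and the vector groups overlapped. The 7 T-cell markers summed to 4.64 to 11.3 CPM in AAV-GFP-MBNL1∆, 4.69 to 63.9 CPM in AAV-GFP and 0.697 to 0.845 CPM in saline, and Cd3e rose in AAV-GFP-MBNL1∆ against saline (adjusted p = 0.0337, edgeR). In each vector group against saline, all 7 were higher at an unadjusted p under 0.05 in edgeR. DESeq2 called all 7 there as well, and limma-voom called 0. The 5 macrophage markers summed to 56.7 to 77.8 CPM in AAV-GFP-MBNL1∆, 63.2 to 400 CPM in AAV-GFP and 38.4 to 49.6 CPM in saline. Against saline, DESeq2 called 4 of them as risen in AAV-GFP and 0 in AAV-GFP-MBNL1∆. Of the 7 lymph node markers, Cxcl13 (values above) and Cr2 were tested, with list medians of 2.79 in AAV-GFP-MBNL1∆ and 4.54 in AAV-GFP against saline. Cr2, a complement receptor of B cells and follicular dendritic cells, had 0.0451, 0.182 and 0.03 CPM in AAV-GFP-MBNL1∆, 0.356, 0.561 and 0.0664 CPM in AAV-GFP, and 0.0289, 0.0303 and 0.026 CPM in saline. Glycam1, Chst4 and Madcam1 had 0 or 1 count per library and Ccl19 and Ccl21a were listed at 0 everywhere. Red-cell markers summed to 282 to 369 CPM in AAV-GFP-MBNL1∆, 225 to 257 CPM in AAV-GFP and 210 to 257 CPM in saline, and were thus highest in AAV-GFP-MBNL1∆, as Ighm was. Alas2 and Hba-a1 rose in AAV-GFP-MBNL1∆ against AAV-GFP (log2 fold changes 0.69 and 0.46, adjusted p = 0.0182 and 0.0312, edgeR), where edgeR called 10.8% of all tested genes as risen. DESeq2 called all 4 tested red-cell genes as risen in AAV-GFP-MBNL1∆ against AAV-GFP and against saline, while edgeR called 0 against saline. The part of these cells in the antibody values was not tested.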

How the data were processed

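The deposited tables hold raw counts per gene, which the authors made from mRNA libraries (KAPA kit, 250 ng of RNA). Per the submitters' processing notes, cutadapt 2.10, STAR 2.7.5a, HTSeq 0.12.4, DESeq2 1.30.0 and the build mm10 were used; no annotation release or strand setting is recorded there. The 5 rows that name no gene (16.8% to 18.3% of reads) were left out. Gene identifiers, coordinates and sequences came from GENCODE M21, where 55141 of 55401 identifiers matched. A single model over all 9 libraries was fitted in edgeR 4.0.16 under R 4.3.3 (filterByExpr, TMM, robust quasi-likelihood F test, 1 mean per group, 6 residual degrees of freedom), with Benjamini-Hochberg adjustment over 18514 genes and a threshold of 0.05. The procedure was tested on simulated counts that had the same spread for all genes and groups. That test does not cover the unequal spread among the AAV-GFP libraries. Shares used union exon length, ratios added 1 count, and the floor was 3 counts over a group. Distances between patterns used log2 of CPM plus 0.1, for genes with a mean of at least 1 CPM. Intervals and floors cover counting error only.

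The members, the gene lists and the comparisons were chosen with earlier results of these data known. All 10 members are named, list genes are named when called (up to 4) or by smallest p, and a few were added for their function after values were seen (Cd79a, Pou2af1, Il21, Fcgrt, Pigr). Ratios to Igkc had been planned but were replaced by ratios to Jchain and to class-switched chains, since Igkc was at 0. Alternatives were other scalings, filters and tools (DESeq2 1.42.0, limma-voom with limma 3.58.1), a fit of only the 2 groups compared, a block for the replicate number, other lengths or added chains for shares, and leaving out each library. Values of a few list genes are not reported here.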

Additional observations from a re-analysis of the deposited data

How the results depend on the processing

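Ighm kept its call in both comparisons with AAV-GFP-MBNL1∆ under all 20 alternatives. The number of members called in AAV-GFP against saline was 8 with DESeq2 and 0 to 8 when single libraries were left out, against 0 in the reported fit. In AAV-GFP-MBNL1∆ against saline it was 2 with upper-quartile factors, 1 without a filter, 1 with limma-voom, 9 with only the 2 groups compared, 9 with DESeq2 and 1 to 8 when single libraries were left out, against 4. In AAV-GFP-MBNL1∆ against AAV-GFP it was 2 with DESeq2 (Ighg1 fell) and 1 to 5 when single libraries were left out, against 1. The IgG1 share in AAV-GFP against saline differed by −3.92 to 14.5 points when single libraries were left out, and its sign turned without saline 2, whose share rests on 17 counts. The cause of these shifts was not tested. Correlations of same-numbered libraries between groups were −0.094 to 0.43, and those of unlike-numbered libraries −0.42 to 0.265. Same-numbered libraries of the 2 vector groups stood at 0.080, 0.17 and 0.43. These values do not settle whether the replicate numbers pair the libraries. With a replicate block, 0, 3 and 1 members were called in the 3 comparisons in the order above. Over all genes, edgeR called 0 in AAV-GFP against saline, DESeq2 called 1629 that rose and 91 that fell, the block 99 and 0, and the fit without AAV-GFP 3 2907 and 355. In AAV-GFP-MBNL1∆ against saline the counts were 882 and 852 in the reported fit, 1600 and 1289 with DESeq2, 2303 and 2281 with only 2 groups, and 286 to 1933 that rose and 214 to 2114 that fell when single libraries were left out. In AAV-GFP-MBNL1∆ against AAV-GFP they were 2006 and 1908, against 2666 and 3001 with DESeq2, 1613 and 1133 without a filter, 1862 and 1260 with limma-voom, 788 and 371 with only 2 groups, and 556 to 2380 that rose and 270 to 4269 that fell when single libraries were left out. Folds of means with single libraries left out were added after the data were seen. Ratios to Igkc could not be computed because Igkc had no count. The 92, 17 and 220 class-switched counts of the saline libraries limit their shares, and with 3 against 3 libraries no permutation p can fall below 0.1.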

Other observations

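Ighe, Iglc1 and Iglc3, constant-region genes outside the 10 members, were highest in AAV-GFP 2 and had 0 or 1 count per library in saline. Ighe, the heavy chain of IgE that mast cells bind, had 11, 6 and 12 counts in AAV-GFP-MBNL1∆, 35, 108 and 1 in AAV-GFP, and 0, 0 and 1 in saline. Its adjusted p-values against saline were 0.136 in AAV-GFP-MBNL1∆ and 0.0841 in AAV-GFP (edgeR). The lambda constant gene Iglc3 had 0.406, 0.546 and 0.225 CPM in AAV-GFP-MBNL1∆, 1.44, 8.11 and 0 CPM in AAV-GFP, and 0 in each saline library. Iglc1 had 0.211, 0.0727 and 0.0300 CPM in AAV-GFP-MBNL1∆, 0.593, 4.10 and 0 CPM in AAV-GFP, and 0 in each saline library, and Iglc4 was listed at 0 everywhere. The 3 lambda variable genes together had 216, 97 and 55 counts in AAV-GFP-MBNL1∆, 522, 4597 and 1 in AAV-GFP, and 0, 0 and 1 in saline, so that the 6 vector libraries stood in the same order as for Jchain.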
